A study of Mus musculus with 52 samples.

Results

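Perforin and the machinery of the cytotoxic granule were followed through 10 genes, Prf1, Srgn, Ctsc, Ctsw, Lamp1, Nkg7, Rab27a, Unc13d, Serpinb6b and Serpinb9, taken by symbol from the 14626 genes of a table of RNA counts. Killer T cells store perforin and granzymes in granules that are modified lysosomes. On contact with a target cell the granules move to the synapse, dock, fuse and release their load, and perforin opens the way into the target for the granzymes. Naive CD8+ T cells hold few such granules, and activation builds them up.

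The series asked how a surface coated with the chemokine CCL21 and the adhesion molecule ICAM1 acts on proliferation and killing of CD8+ T cells after each of a pair of activation routes. All cells were CD8+ T cells isolated by magnetic sorting from spleens of OT-I mice, which carry a transgenic receptor for an ovalbumin peptide, so all groups share 1 antigen receptor. RNA was read by bulk MARS-seq, which counts the 3′ ends of transcripts, in 52 libraries of 9 groups. Each title has an M number between 1 and 10, taken as the replicate, and titles of libraries activated by dendritic cells (DCs) carry 30 or 120, but the labels explain neither number.

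DC-activated cells had met CD11c-selected spleen cells of C57BL/6 mice that were preloaded with ovalbumin peptide. At day 3 they gave 9 libraries from coated wells and 7 from uncoated wells, which were summed per M number to 5 and 4 samples. At day 4 they gave 5 coated and 5 uncoated libraries. Bead-activated cells had received beads with antibodies against CD3 and CD28 together with interleukin 2. They gave 5 coated and 3 uncoated libraries at day 3, and 4 coated and 5 uncoated libraries at day 7. Day 0 cells, 9 libraries, were naive cells without activation or coating. DC day 4 libraries carry M numbers 6 to 10 and all other activated libraries M numbers 1 to 5, so at DC day 4 the day and the set of M numbers cannot be told apart. The labels do not say whether each M number is a mouse of its own, and p-values therefore measure only the spread between these samples, which may be technical.

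Libraries held 382924 to 4641802 counts. Levels are given as CPM, counts scaled to the size of each library, with TMM factors over all libraries. Each log2 fold change is printed with its standard error (SE). A gene was called when its adjusted p in edgeR's quasi-likelihood test, corrected over all genes tested, was under 0.05. All 12 CD8 T cell markers checked were in the table, and their summed level was 7290 to 20100 CPM across the libraries. Day 0 libraries held erythroid transcripts at 27000 to 143000 CPM, MHC class II at 11800 to 21900 CPM and B cell markers at 3650 to 7350 CPM. In activated libraries the same sums were 7.33 to 1220 CPM, 68.6 to 1610 CPM and 269 to 2600 CPM. NK cell markers, of which 4 of 10 were in the table, summed to 0 to 30.3 CPM in activated libraries and 124 to 252 CPM at day 0. Myeloid and dendritic cell markers, 11 of 12 in the table, summed to 3.51 to 56.4 CPM in activated libraries and 186 to 622 CPM at day 0. Leaving the marker genes of these other cells out of the fits kept the number of members called against day 0 as given below, but RNA that such cells contribute to the members themselves was not tested. The libraries are bulk samples, so fewer cells of a type and less RNA per cell cannot be told apart.

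Of the 10 genes, 9 passed the filter on low counts in every comparison and Serpinb9 in none. Against day 0, 6 of 9 tested members were called in uncoated DC-activated cells at day 3 (3 higher and 3 lower), where 73.9% of all genes tested were called, 36.3% higher and 37.5% lower. At DC day 4, 5 of 9 were called (3 higher and 2 lower) against a background of 54.9%, 26.0% higher and 28.9% lower. In uncoated bead-activated cells 7 of 9 were called at day 3 (2 higher and 5 lower) against 64.8% of all genes, 29.9% higher and 35.0% lower. At bead day 7, 5 of 9 were called (4 higher and 1 lower) against 60.9%, 30.1% higher and 30.8% lower. These shares lie near the background, and the members moved in both directions. The median log2 change of the 9 tested members was -0.26 at DC day 3, 0.23 at DC day 4, -0.65 at bead day 3 and 0.50 at bead day 7. Over all genes tested it was -0.04 at DC day 3, -0.03 at DC day 4, -0.12 at bead day 3 and -0.02 at bead day 7.

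Between activators at day 3, 5 of 9 members were called in uncoated wells, DC against bead, where 25.1% of all genes were called. In coated wells 7 of 9 were called against 39.3%. Between days, 7 of 9 members differed at DC day 4 from DC day 3 in uncoated wells (background 61.0%) and 4 of 9 in coated wells (background 43.2%). Bead-activated cells of day 7 differed from those of day 3 in 4 of 9 members when uncoated (background 22.7%) and in 3 of 9 when coated (background 6.38%). Without a term for M number, coating changed 2 of 9 members at DC day 4 (Rab27a and Lamp1), where 18.4% of all genes were called. With M number as a block in edgeR, Serpinb6b was also called there (adjusted p = 0.0027). Without that term coating changed 0 of 9 at DC day 3 (background 0.390%), 0 of 9 at bead day 3 (background 0.100%) and 0 of 9 at bead day 7 (background 1.78%). At an unadjusted p under 0.05 edgeR gave 0, 1 (Ctsc) and 3 members in these 3 comparisons, and DESeq2 called 0 in each. The backgrounds above are for adjusted p in edgeR and do not serve for these counts.

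**Figure D1:**
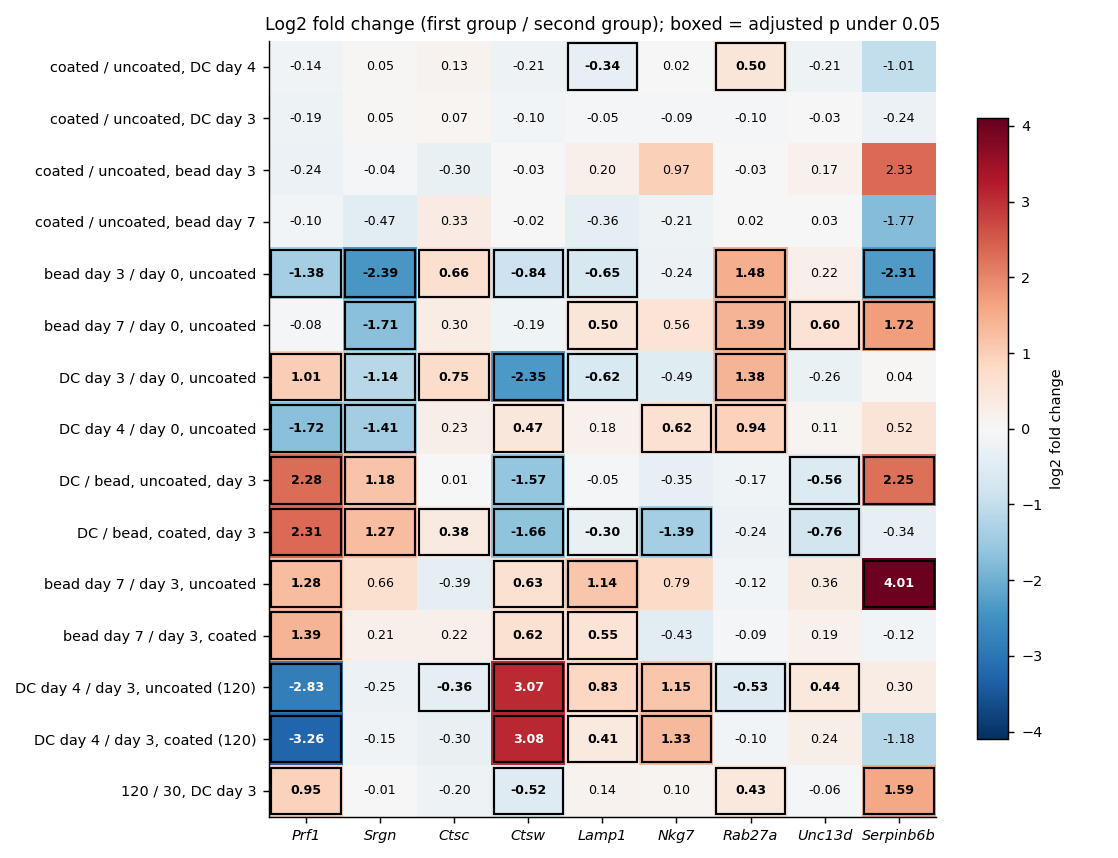
Log2 fold changes of the 9 tested members (horizontal axis) in the comparisons named down the left side, with the value in each cell and calls boxed. The 4 coating rows hold 2 calls of 36, both at DC day 4, where 18.4% of all genes tested were called. Values in these rows reach 2.33 without a call (Serpinb6b at bead day 3). The largest values in the plot are 4.01 for Serpinb6b between bead days in uncoated wells, -3.26 for Prf1 between DC days in coated wells and 3.08 for Ctsw there.

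Prf1 (chromosome 10, 61297833 to 61304680, plus strand, GRCm38) encodes perforin, the protein that polymerises into pores in the target cell membrane. Its promoter window from RefSeq on GRCm38.p6, 250 bases before to 50 after the transcript start at chr10:61297586-61297885 (plus strand), is shown because perforin forms the pore and its RNA changed between activators and days. Below it stand the windows of Rab27a, at chr9:73044560-73044859 (plus strand), and of Srgn, at chr10:62527396-62527695 (minus strand), whose RNA took other courses. Capitals mark matches, on either strand, to motifs of factor families at work in T cells.

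Prf1: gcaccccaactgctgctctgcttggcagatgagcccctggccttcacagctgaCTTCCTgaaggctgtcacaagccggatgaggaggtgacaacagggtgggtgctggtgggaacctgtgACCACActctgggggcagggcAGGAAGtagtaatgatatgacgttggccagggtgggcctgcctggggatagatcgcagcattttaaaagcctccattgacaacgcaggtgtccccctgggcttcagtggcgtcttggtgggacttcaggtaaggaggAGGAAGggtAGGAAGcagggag
Rab27a: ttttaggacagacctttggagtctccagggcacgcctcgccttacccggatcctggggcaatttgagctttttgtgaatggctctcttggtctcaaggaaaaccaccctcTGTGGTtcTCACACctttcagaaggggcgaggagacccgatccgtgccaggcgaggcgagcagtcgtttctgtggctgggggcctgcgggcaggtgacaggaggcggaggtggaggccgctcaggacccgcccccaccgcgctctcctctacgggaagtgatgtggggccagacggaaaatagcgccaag
Srgn: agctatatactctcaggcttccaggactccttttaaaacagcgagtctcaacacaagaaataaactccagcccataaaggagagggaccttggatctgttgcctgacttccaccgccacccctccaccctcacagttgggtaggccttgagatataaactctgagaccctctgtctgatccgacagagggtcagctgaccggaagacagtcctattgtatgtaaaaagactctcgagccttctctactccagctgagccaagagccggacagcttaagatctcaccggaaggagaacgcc

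Of these motifs, the RUNX motif TGTGGT occurred in 16.8% of all 32851 promoter windows, the ETS motif AGGAAG in 35.4%, the T-box motif TCACAC in 14.5%, the STAT motif TTCNNNGAA in 8.3% and the AP-1 motif TGANTCA in 7.81%. The Prf1 window held 1 RUNX match and 4 ETS matches, and the Rab27a window 1 RUNX match followed by 1 T-box match. The Srgn window held none of the 5 motifs. The table lists another start for Srgn and for Rab27a, not shown here, where the Srgn window (chr10:62507708-62508007) held 1 RUNX match and the Rab27a window (chr9:73063898-73064197) none of the 5 motifs. A match is a match of letters, not a binding site. The table had windows for 8 of the 10 genes, and no binding was measured here.

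Prf1 RNA was highest after DC activation at day 3 and had dropped by DC day 4. At DC day 3 coated samples (M numbers 1 to 5) held 127.6, 93.9, 75.0, 94.4 and 173.6 CPM, and uncoated samples (M numbers 1, 3, 4 and 5) 104.9, 179.9, 124.9 and 125.6 CPM. Bead-activated cells of day 3 held 17.7, 14.5, 38.9, 24.9 and 18.6 CPM when coated and 30.4, 22.0 and 27.1 CPM when uncoated (M numbers 1, 2 and 4). Every DC sample of day 3 lay above every bead sample of day 3. The difference was 4.85-fold in uncoated wells (log2 2.28 ± 0.20 SE, adjusted p = 1.05e-06, means 133.8 ± 32.2 CPM in DC samples and 26.5 ± 4.23 CPM in bead samples, SD, n = 4 and 3). In coated wells it was 4.97-fold (log2 2.31 ± 0.29 SE, adjusted p = 6.9e-05, means 112.9 ± 38.9 CPM with DCs and 22.9 ± 9.68 CPM with beads, SD, n = 5 each). With only the DC libraries titled 30 the log2 difference of Prf1 was 1.70 uncoated and 1.88 coated, and with only those titled 120 it was 2.45 uncoated and 2.995 coated.

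At DC day 4 Prf1 stood at 14.8, 20.5, 20.15, 15.6 and 25.7 CPM in coated libraries (M numbers 6 to 10) and at 16.4, 24.45, 23.95, 22.0 and 19.0 CPM in uncoated libraries. Those libraries are all titled 120, so they were set against the day 3 libraries titled 120, whose Prf1 ranged from 121.3 to 240.7 CPM (coated, n = 4) and from 125.3 to 179.9 CPM (uncoated, n = 4). The days did not overlap. Prf1 was 9.55-fold lower at day 4 in coated wells (log2 -3.26 ± 0.22 SE, adjusted p = 3.6e-07) and 7.09-fold lower in uncoated wells (log2 -2.83 ± 0.15 SE, adjusted p = 2.44e-10). Taking each day relative to the day 0 libraries of its own M numbers, the log2 change of Prf1 was -2.85 in coated and -2.44 in uncoated wells. Here and below, day 0 of the own or same M numbers means all day 0 libraries of the set 1 to 5 or 6 to 10. It is no match of single M numbers, and M number 9 has no day 0 library. That setting was chosen after the data were seen.

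In bead-activated cells Prf1 was higher at day 7 than at day 3. Day 7 libraries held 66.7, 62.35, 49.6 and 68.2 CPM when coated (M numbers 1, 2, 3 and 5) and 60.6, 107.8, 45.4, 45.1 and 67.8 CPM when uncoated (M numbers 1 to 5). All of these exceed the highest bead library of day 3. In coated wells Prf1 was 2.61-fold higher at day 7 than at day 3 (log2 1.39 ± 0.23 SE, adjusted p = 0.00275). In uncoated wells it was 2.42-fold higher (log2 1.28 ± 0.30 SE, adjusted p = 0.013), with an adjusted p of 0.0589 without M number 2 and 0.0575 without M number 4 of the uncoated day 3 libraries.

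Naive cells held Prf1 at 52.2, 68.8 and 92.9 CPM (lowest, median and highest of 9). Against them it rose 2.01-fold in uncoated DC-activated cells at day 3 (log2 1.01 ± 0.16 SE, adjusted p = 1.66e-05), a value of 0.44 with only the libraries titled 30 and 1.10 with only those titled 120. It fell 3.3-fold at DC day 4 (log2 -1.72 ± 0.17 SE, adjusted p = 8.95e-08) and 2.61-fold at bead day 3 (log2 -1.38 ± 0.22 SE, adjusted p = 3.76e-05), with no overlap of samples in any of the 3 comparisons. At DC day 3 that holds for the summed samples only. Single uncoated libraries titled 30 held 84.3 to 92.7 CPM (n = 3), within the range of day 0. At bead day 7 the log2 change of Prf1 was -0.08 ± 0.21 (adjusted p = 0.769). The 9 group means of Prf1 ran from DC day 3 uncoated and coated through day 0 and bead day 7 uncoated and coated (61.7 ± 8.42 CPM, n = 4) to bead day 3 uncoated and coated and DC day 4 uncoated and coated (19.3 ± 4.39 CPM, n = 5). The only neighbours in that order whose samples did not overlap were bead day 7 coated and bead day 3 uncoated.

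**Figure D2:**
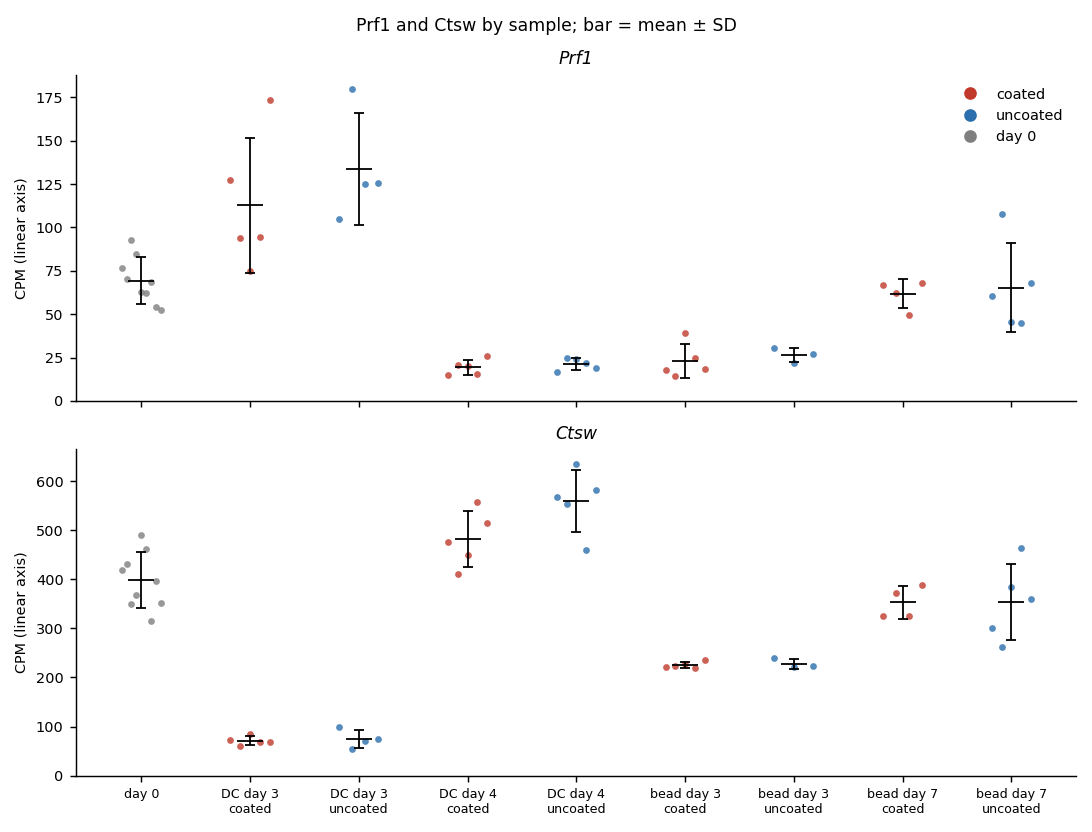
Prf1 (perforin) and Ctsw (cathepsin W) in CPM, 1 point per sample with group means and SD, in the 9 groups along the horizontal axis. Prf1 is highest and Ctsw lowest at DC day 3, and Prf1 is lowest and Ctsw highest at DC day 4.

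Serglycin, encoded by Srgn (chromosome 10, 62493833 to 62527451, minus strand), is the proteoglycan on which granzymes and perforin are packed in the granule. Activated samples held less Srgn RNA than day 0 libraries, where the part of other cells in Srgn was not tested. At DC day 3 it measured 1049, 967.6, 890.5, 998.7 and 984.5 CPM in coated samples and 935.8, 854.7, 964.6 and 1008 CPM in uncoated samples. Bead samples of day 3 held 351.1, 490.6, 416.3, 375.5 and 424.6 CPM when coated and 373.7, 480.6 and 409.2 CPM when uncoated. No DC sample of day 3 overlapped a bead sample of day 3. The difference was 2.4-fold in coated wells (log2 1.26 ± 0.10 SE, adjusted p = 6.39e-08) and 2.27-fold in uncoated wells (log2 1.18 ± 0.11 SE, adjusted p = 9.76e-07).

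Day 0 libraries held Srgn at 1546, 2221 and 3192 CPM (lowest, median and highest), above every activated sample. Uncoated cells were lower than day 0 by 2.2-fold at DC day 3 (log2 -1.14 ± 0.20 SE, adjusted p = 6.38e-05), 2.66-fold at DC day 4 (log2 -1.41), 5.25-fold at bead day 3 (log2 -2.39) and 3.27-fold at bead day 7 (log2 -1.71). The day 0 libraries themselves fell into separate ranges by M number. Those of M numbers 6 to 10 held 1546 to 1657 CPM of Srgn, and those of M numbers 1 to 5 held 2221 to 3192 CPM. That bears on Srgn from day 3 to day 4 after DC activation, where the direct log2 difference was -0.15 ± 0.13 coated and -0.25 ± 0.11 uncoated, neither called. Relative to the day 0 libraries of the same M numbers the difference was 0.57 ± 0.18 coated (adjusted p = 0.0158) and 0.44 ± 0.16 uncoated (adjusted p = 0.0267). The direction of the Srgn change between those days thus turns on which libraries stand for the start.

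Ctsc (chromosome 7, 88278085 to 88310888, plus strand) encodes cathepsin C, which trims the pro-granzymes into active enzymes. Its RNA was higher than at day 0 in the uncoated cells of day 3. Uncoated DC samples of day 3 held 114.7, 110.5, 119.2 and 103.9 CPM and uncoated bead samples 114.4, 109.9 and 111.7 CPM, against 48.3, 76.8 and 84.0 CPM at day 0 (lowest, median and highest). These uncoated groups did not overlap day 0. Coated samples of day 3 held 99.4 to 132.6 CPM with DCs, without overlap, and 80.2 to 104.3 CPM with beads, which overlapped day 0. Ctsc rose 1.68-fold with DCs (log2 0.75 ± 0.14 SE, adjusted p = 0.00013) and 1.58-fold with beads (log2 0.66 ± 0.17 SE, adjusted p = 0.00307). At DC day 4 it was 1.28-fold lower than at DC day 3 in uncoated wells (log2 -0.36 ± 0.12 SE, adjusted p = 0.0182), a call lost without the uncoated library of M number 4 at day 3, or of M number 6 or 10 at day 4 (adjusted p from 0.0517 to 0.0659). In coated wells the log2 difference between these days was -0.30 ± 0.14 (adjusted p = 0.0884), and -0.38 with an adjusted p of 0.0284 without the day 3 library of M number 4. Day 0 libraries of M numbers 6 to 10 held a median of 81.1 CPM of Ctsc and those of M numbers 1 to 5 a median of 53.7 CPM. Relative to these starting levels the difference between the days was -0.81 ± 0.20 uncoated (adjusted p = 0.0014) and -0.72 ± 0.21 coated (adjusted p = 0.00937). In coated wells of day 3 it was 1.3-fold higher with DCs than with beads (log2 0.38 ± 0.11 SE, adjusted p = 0.0108), and 0.30 with an adjusted p of 0.13 with only the DC libraries titled 120.

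Ctsw (chromosome 19, 5465043 to 5468507, minus strand) encodes cathepsin W, a papain-like protease of CD8+ T and NK cells whose exons overlap Fibp on the other strand. Whether the counting used strand is not given in the sources used here, so reads in the overlap of Ctsw and Fibp may be mixed or lost. Ctsw moved the other way from Prf1 after DC activation. At DC day 3 it stood at 73.3, 59.7, 85.9, 69.2 and 69.5 CPM in coated samples and 98.95, 53.8, 70.4 and 73.7 CPM in uncoated samples. At DC day 4 it stood at 476.8, 411.2, 449.8, 557.1 and 514.6 CPM in coated libraries and 567.1, 553.0, 635.4, 460.5 and 582.7 CPM in uncoated ones. The 2 days were far apart in both kinds of well. Against the day 3 libraries titled 120, day 4 was 8.43-fold higher in coated wells (log2 3.08 ± 0.15 SE, adjusted p = 7.22e-09) and 8.38-fold higher in uncoated wells (log2 3.07 ± 0.13 SE, adjusted p = 1.96e-11).

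Bead-activated cells of day 3 held Ctsw at 221.7, 223.9, 227.3, 218.8 and 234.9 CPM when coated and 239.4, 221.3 and 222.4 CPM when uncoated, above all DC samples of that day. DC-activated cells were 3.15-fold lower in coated wells (log2 -1.66 ± 0.10 SE, adjusted p = 8.17e-09) and 2.97-fold lower in uncoated wells (log2 -1.57 ± 0.16 SE, adjusted p = 4.95e-06). At bead day 7 Ctsw reached 352.9 ± 33.3 CPM coated (SD, n = 4) and 354.1 ± 77.5 CPM uncoated (SD, n = 5), which was 1.53-fold (adjusted p = 0.00127) and 1.55-fold (adjusted p = 0.0291) above bead day 3. The uncoated call was lost with the M numbers blocked (0.55, adjusted p = 0.0735) and without M number 1, 2 or 4 of the day 3 libraries (adjusted p from 0.082 to 0.108), or without M numbers 3 and 4 of day 7 (0.43, adjusted p = 0.0816).

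Naive cells held Ctsw at 315.7, 395.6 and 490.8 CPM (lowest, median and highest). Relative to them Ctsw fell 5.08-fold in uncoated DC-activated cells at day 3 (log2 -2.35 ± 0.17 SE, adjusted p = 5.42e-10) and 1.79-fold at bead day 3 (log2 -0.84 ± 0.15 SE, adjusted p = 9.09e-05). It rose 1.38-fold at DC day 4 (log2 0.47 ± 0.11 SE, adjusted p = 0.00183). Perforin and cathepsin W thus took opposite directions against day 0 at both DC days and the same direction at bead day 3. Across the 52 libraries, deviations of Prf1 and Ctsw from their group means correlated at r = -0.54, a description over libraries that share cultures and depth. The DC day 3 means were taken over libraries of both title numbers. Prf1 and Ctsw differed in opposite directions between these title numbers, so that split enters this r.

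Lamp1 (chromosome 8, 13159161 to 13175338, plus strand) encodes a glycoprotein of the lysosome membrane that appears on the cell surface when granules are released. Its exons overlap Grtp1 on the other strand. Lamp1 was higher at the later day with both activators. DC-activated cells of day 4 held 241.7, 239.3, 200.9, 274.9 and 302.9 CPM when coated and 280.3, 331.5, 330.1, 303.9 and 361.6 CPM when uncoated. The day 3 libraries titled 120 lay between 168.7 and 211.3 CPM when coated and between 164.7 and 183.2 CPM when uncoated, and only the coated days overlap. Day 4 was 1.33-fold above day 3 in coated wells (log2 0.41 ± 0.14 SE, adjusted p = 0.0302) and 1.78-fold in uncoated wells (log2 0.83 ± 0.10 SE, adjusted p = 2.04e-06). The coated call of Lamp1 was lost without the day 3 sample of M number 1, 2 or 5, or the day 4 library of M number 9 or 10 (adjusted p from 0.0597 to 0.101). Relative to day 0 of the same M numbers the coated value was 0.85 ± 0.18 (adjusted p = 0.000717).

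Bead-activated cells of day 7 held Lamp1 at 314.4 ± 8.61 CPM when coated (SD, n = 4) and 399.5 ± 71.5 CPM when uncoated (SD, n = 5), and those of day 3 at 209.4 ± 12.8 CPM coated (n = 5) and 181.3 ± 18.3 CPM uncoated (n = 3). The days did not overlap. The rise was 1.47-fold coated (log2 0.55 ± 0.09 SE, adjusted p = 0.00246) and 2.2-fold uncoated (log2 1.14 ± 0.17 SE, adjusted p = 0.0016). Against day 0, where Lamp1 ran from 205.6 to 359.2 CPM around a median of 268, it fell 1.54-fold at DC day 3 (adjusted p = 0.000683) and 1.57-fold at bead day 3 (adjusted p = 0.00294). It was 1.42-fold higher at bead day 7 (log2 0.50 ± 0.14 SE, adjusted p = 0.00496), and 0.28 with an adjusted p of 0.0946 against only the day 0 libraries of M numbers 1 to 5. At DC day 4 its log2 change was 0.18 ± 0.13 (adjusted p = 0.232), and 0.46 ± 0.10 (adjusted p = 0.000865) against only the day 0 libraries of M numbers 6 to 10. In coated wells of day 3 Lamp1 was 1.23-fold lower with DCs than with beads (adjusted p = 0.00948), a call absent with only the DC libraries titled 120 (log2 -0.12, adjusted p = 0.519).

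Nkg7 (chromosome 7, 43437073 to 43438249, plus strand) encodes a small membrane protein of the granule that is needed for its release. DC-activated cells held more of its RNA at day 4, at 752.4, 634.2, 334.1, 802.5 and 701.2 CPM coated and 611.5, 666.0, 449.0, 706.1 and 781.9 CPM uncoated. The day 3 libraries titled 120 held 250.5 ± 46.5 CPM coated and 282.3 ± 62.1 CPM uncoated (SD, n = 4 each), all below day 4. Nkg7 was 2.52-fold higher at day 4 in coated wells (log2 1.33 ± 0.22 SE, adjusted p = 0.000396) and 2.22-fold in uncoated wells (log2 1.15 ± 0.17 SE, adjusted p = 4.17e-05). Day 0 libraries of M numbers 6 to 10 also held more Nkg7, 502.9 to 558.4 CPM, than those of M numbers 1 to 5, 229.8 to 364.6 CPM. Relative to these starting levels the log2 difference between the days was 0.54 ± 0.26 coated (adjusted p = 0.112) and 0.33 ± 0.21 uncoated (adjusted p = 0.197), and neither call held. Against all day 0 libraries Nkg7 was 1.54-fold higher at DC day 4 (adjusted p = 0.00938), and against those of M numbers 6 to 10 its log2 change was 0.26 (adjusted p = 0.0865).

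In bead-activated cells Nkg7 spread widely within groups. Coated libraries held 85.6, 90.4, 1292 and 653.1 CPM at day 7 and 872.2, 702.3, 211.3, 853.3 and 870.9 CPM at day 3. Uncoated libraries held 869.6, 49.45, 1030.0, 158.0 and 963.9 CPM at day 7 and 669.1, 158.3 and 223.4 CPM at day 3. The highest uncoated library of bead day 7 was 20.8-fold above the lowest. Cd3d, a chain of the T cell receptor complex, ranged 21.4-fold in the same 5 libraries, and Cd3e, another chain, 1.69-fold.

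Across all 52 libraries the deviation of Nkg7 from its group mean correlated with that of Cd3d at r = 0.97 and with that of Cd3e at r = 0.25, as log2(CPM + 2). High and low libraries of Nkg7 are thus high and low libraries of Cd3d, and of 7984 genes averaging 10 CPM or more, 163 followed Nkg7 with r over 0.8. The closest after Cd3d were Mdh1 and Dad1 (r = 0.96 each) and Ndufs4, Rpl5, Cox6c, Ckap5 and Sub1 (0.94 each). None of these encodes a chain of the T cell receptor complex, and what the genes share was not tested. The day 0 mean was taken over both sets of M numbers, whose Nkg7 differed, so that split enters these r. Coated DC-activated cells of day 3 held 2.62-fold less Nkg7 than coated bead-activated ones (log2 -1.39 ± 0.39 SE, adjusted p = 0.0211), a call lost without the coated bead library of M number 5 (adjusted p = 0.0514) or the coated DC sample of M number 2 (0.0524).

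**Figure D3:**
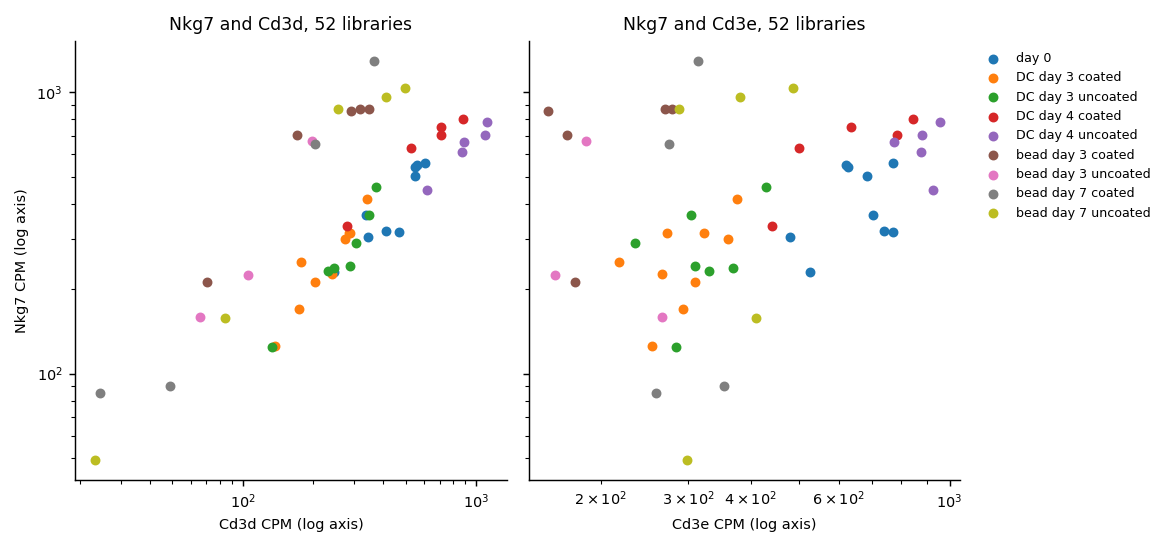
Nkg7 against Cd3d (left) and Cd3e (right) in CPM on log axes, 1 point per library, by group. Within groups Nkg7 is higher where Cd3d is higher (left), with bead day 7 libraries from 49.4 to 1290 CPM of Nkg7.

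Rab27a (chromosome 9, 73044854 to 73097629, plus strand) encodes the small GTPase that docks granules at the membrane. Its exons overlap Gm27186 on the same strand, so reads in the overlap cannot be told apart and may be mixed or lost. Every activated group had a higher mean level of Rab27a RNA than naive cells, whose libraries ran from 13.4 to 65.8 CPM around a median of 33.8. Uncoated samples held 111.3, 92.9, 101.4 and 99.3 CPM at DC day 3, 83.1, 87.0, 64.1, 78.0 and 81.8 CPM at DC day 4 and 117.9, 112.8 and 114.8 CPM at bead day 3. Bead day 7 ran from 89.5 to 131.1 CPM. Only the lowest DC day 4 library fell within the range of day 0. Rab27a rose 2.61-fold at DC day 3 (log2 1.38 ± 0.30 SE, adjusted p = 0.000623), 1.92-fold at DC day 4 (0.94 ± 0.28, adjusted p = 0.00904), 2.78-fold at bead day 3 (1.48 ± 0.35, adjusted p = 0.00185) and 2.63-fold at bead day 7 (1.39 ± 0.29, adjusted p = 0.000495). Against only the day 0 libraries of the same set of M numbers (6 to 10 for DC day 4, 1 to 5 for the others) the 4 log2 values were 2.01, 0.49, 2.13 and 1.98. The largest adjusted p was 0.0132, at DC day 4. The rise at DC day 4 was thus smaller against that set, and the others were larger. Between the DC days Rab27a was 1.44-fold lower at day 4 in uncoated wells (log2 -0.53 ± 0.13 SE, adjusted p = 0.00173) and its log2 difference was -0.10 ± 0.16 in coated wells (adjusted p = 0.627). Relative to day 0 of the same M numbers the uncoated value was -1.70 ± 0.31 (adjusted p = 9.18e-05) and the coated value -1.24 ± 0.33 (adjusted p = 0.00474).

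Unc13d (chromosome 11, 116062095 to 116077961, minus strand) encodes Munc13-4, which primes docked granules for fusion and which Rab27a recruits. It was lower with DCs than with beads at day 3. DC samples held 62.3, 72.1, 90.4, 59.6 and 73.6 CPM when coated and 76.8, 64.5, 67.4 and 75.5 CPM when uncoated. Bead libraries held 110.6, 100.9, 133.1, 131.4 and 124.9 CPM when coated and 104.5, 107.0 and 107.5 CPM when uncoated. No DC sample reached a bead sample. Unc13d was 1.69-fold lower with DCs in coated wells (log2 -0.76 ± 0.12 SE, adjusted p = 0.000163) and 1.47-fold lower in uncoated wells (log2 -0.56 ± 0.12 SE, adjusted p = 0.0031).

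Over time Unc13d was called in uncoated wells between the DC days, 1.36-fold higher at day 4 (97.9 ± 6.39 CPM, SD, n = 5) than at day 3 in libraries titled 120 (70.1 ± 7.53 CPM, n = 4, adjusted p = 0.00263). Relative to day 0 of the same M numbers that log2 difference was 0.003 ± 0.22 (adjusted p = 0.995). In coated wells it was 0.24 ± 0.14 (adjusted p = 0.177). Uncoated bead-activated cells of day 7, at 121.9 to 148.9 CPM, were 1.52-fold above day 0 (lowest 52.2, median 100.4 and highest 113.7 CPM, adjusted p = 0.00408), without overlap. Deviations of Rab27a and Unc13d from their group means correlated at r = 0.56 over the 52 libraries. The day 0 mean was taken over both sets of M numbers, and the split between them enters the r. Day 0 medians for M numbers 1 to 5 and 6 to 10 were 27.5 and 60.7 CPM for Rab27a. For Unc13d they were 64.6 and 102.2 CPM.

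Serpinb6b (chromosome 13, 32965209 to 32979067, plus strand) and Serpinb9 (chromosome 13, 33003250 to 33017957, plus strand) belong to the intracellular serpins. Serpinb9 inhibits granzyme B and shields the killer cell, and Serpinb6b is a close relative. They lie in a cluster of near copies, so reads may be split between neighbours and both values are uncertain. Serpinb9 had 0 to 20 counts per library and was at 0 in 17 of 52, and since it did not pass the filter it was tested in no comparison. Its highest level was 8.45 CPM, in a coated DC library of day 3 titled 120.

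Serpinb6b varied among samples of 1 group by up to 19.9-fold. Uncoated bead-activated cells of day 7 held 34.6, 33.4, 132.5, 35.8 and 90.5 CPM, against 6.42, 2.93 and 1.04 CPM at day 3, with no overlap, a 16.1-fold rise (log2 4.01 ± 0.82 SE, adjusted p = 0.0134). That call was lost without M number 2 (adjusted p = 0.0526) or 4 (0.0556) of the uncoated day 3 libraries. In coated wells day 7 held 4.91, 6.24, 48.5 and 15.9 CPM and day 3 held 28.7, 9.17, 2.13, 19.1 and 41.2 CPM, which overlapped (log2 -0.12 ± 0.89, adjusted p = 0.955). Uncoated DC-activated cells of day 3 held 31.0, 26.4, 10.7 and 12.65 CPM, 4.74-fold above beads (adjusted p = 0.0482), a call lost without any 1 of the 3 bead libraries or the DC sample of M number 3 (adjusted p from 0.0611 to 0.137), with only the DC libraries titled 30 (log2 1.51, adjusted p = 0.101) or with no filter on low counts (adjusted p = 0.0708).

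Day 0 libraries held Serpinb6b at 2.66, 9.63 and 53.0 CPM (lowest, median and highest), so naive cells overlapped all activated groups. The day 0 libraries of M numbers 1 to 5 ran from 2.66 to 9.63 CPM and those of M numbers 6 to 10 from 9.89 to 53.0 CPM, without overlap. Serpinb6b was 3.3-fold higher than day 0 at bead day 7 (log2 1.72 ± 0.54 SE, adjusted p = 0.0134). Without the day 7 library of M number 3 that value was 1.32 (adjusted p = 0.0514), without M numbers 3 and 4 it was 1.45 (0.0566), and against only the day 0 libraries of M numbers 1 to 5 it was 3.06 (0.000433). At bead day 3 it was 4.96-fold lower (log2 -2.31 ± 0.90 SE, adjusted p = 0.037), where the 3 bead libraries held 14 counts in all. Without any 1 of them the value lay between -3.35 and -1.91 (adjusted p from 0.0506 to 0.13), with no filter it was -2.22 (0.0734), and with M number as a block it was -0.85 (0.161). At DC day 3 its log2 change was 0.04 ± 0.57 (adjusted p = 0.948) against all day 0 libraries and 1.37 ± 0.39 (adjusted p = 0.00455) against those of M numbers 1 to 5. Between the DC days in uncoated wells it was 0.30 ± 0.49 directly (adjusted p = 0.618) and -1.83 relative to day 0 of the same M numbers (adjusted p = 0.0521). Deviations of Serpinb6b from its group means correlated at r = 0.61 with those of Nkg7 and at r = 0.62 with those of Cd3d. The day 0 mean was taken over both sets of M numbers, which differ in Serpinb6b and in Nkg7, so that split enters these r.

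**Figure D4:**
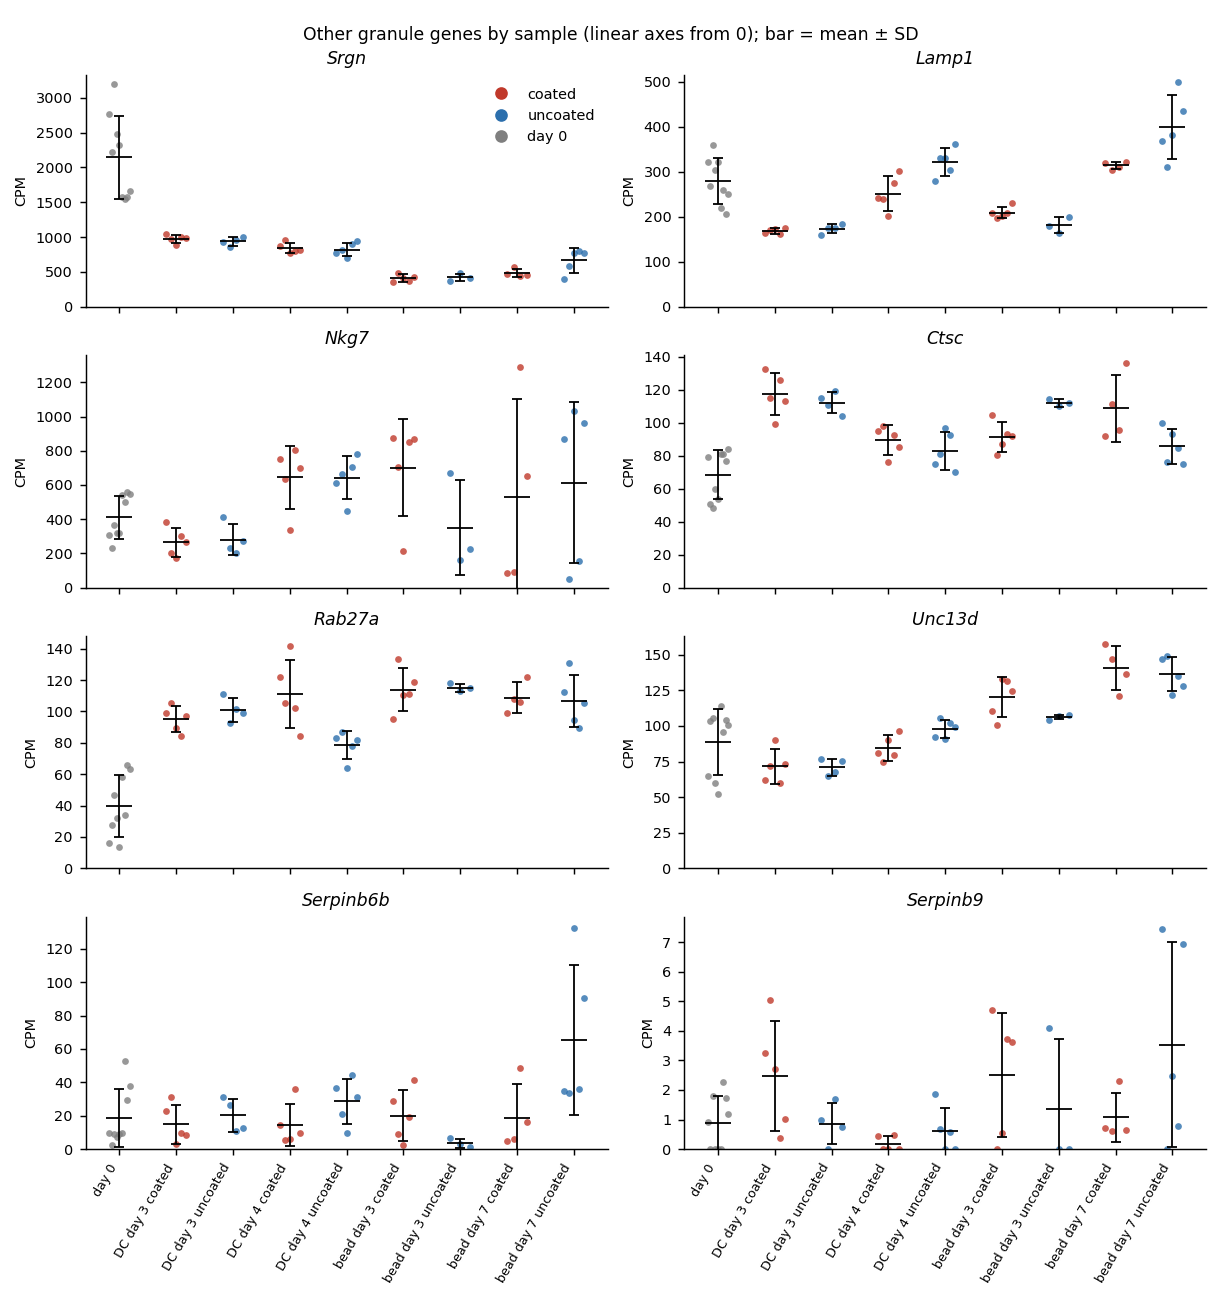
The other 8 members in CPM, 1 point per sample with group means and SD (bars end at 0), in the 9 groups. Srgn is highest and Rab27a lowest at day 0, and the 4 coated bead libraries of day 7 spread from 85.6 to 1292 CPM for Nkg7.

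Whether coating with CCL21 and ICAM1 changed the granule genes was the question of 4 comparisons, with 36 tests over the 9 members and 2 calls, both at DC day 4. There 18.4% of all genes tested were called, which is near the 2 of 9 members. The 36 tests carry no term for M number. Coated libraries of DC day 4 held Rab27a at 121.9, 105.4, 141.7, 102.0 and 84.5 CPM (M numbers 6 to 10), against 83.1, 87.0, 64.1, 78.0 and 81.8 CPM in uncoated libraries. The coated library was the higher one for all 5 M numbers, and the groups overlap only through the coated library of M number 10. Rab27a was 1.42-fold higher with coating (log2 0.50 ± 0.14 SE, adjusted p = 0.0192). Without both libraries of M number 8, whose uncoated library held the highest MHC class II (1610 CPM) and erythroid (1220 CPM) sums among activated libraries, the value was 0.36 with an adjusted p of 0.0556. Without the coated library of M number 6 it was 0.47 with an adjusted p of 0.0536, and the authors' deposited table gives 0.50 with an adjusted p of 0.106.

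Lamp1, with the values given above, was 1.27-fold lower with coating at DC day 4 (log2 -0.34 ± 0.12 SE, adjusted p = 0.0494). The coated library was the lower one for all 5 M numbers, and the groups overlap. The adjusted p was 0.129 without M number 8, and leaving out any 1 of 8 of the 10 libraries lost the call (adjusted p from 0.0533 to 0.129). With the M numbers blocked it was 0.0178, and the authors' deposited table gives a log2 change of -0.34 with an adjusted p of 0.0427 for Lamp1.

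Serpinb6b at DC day 4 stood at 14.1, 5.53, 5.85, 35.85 and 9.47 CPM in coated libraries and 36.3, 21.0, 9.41, 44.5 and 31.4 CPM in uncoated ones. Coated was lower for all 5 M numbers, while the groups overlap. The log2 change was -1.01 ± 0.56 (adjusted p = 0.238) without and -1.18 ± 0.23 (adjusted p = 0.0027) with the M numbers blocked. The M numbers were taken to pair these samples, since deviations from the group means correlated at 0.16 to 0.39 in all 5 pairs.

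Perforin did not pass the test for coating in any of the 4 settings. Its log2 change, coated against uncoated, was -0.14 ± 0.19 at DC day 4 (adjusted p = 0.656), -0.19 ± 0.25 at DC day 3 (0.815), -0.24 ± 0.29 at bead day 3 (0.786) and -0.10 ± 0.24 at bead day 7 (0.836). At DC day 3 coated and uncoated samples differ in their make-up, since M number 3 has only a library titled 30 in coated wells and only one titled 120 in uncoated wells. With the title number as a covariate the Prf1 value was 0.14 ± 0.16, with only libraries titled 120 it was 0.31 ± 0.19 (adjusted p = 0.668), and with only those titled 30 it was -0.04, so its sign is not settled.

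At bead day 7 Srgn, Lamp1 and Ctsc had an unadjusted p under 0.05. Coated libraries held Lamp1 at 319.3, 303.6, 311.7 and 323.1 CPM, against 368.6, 311.0, 381.8, 499.6 and 436.3 CPM in uncoated ones, lower for 4 of 4 shared M numbers (log2 -0.36 ± 0.14, adjusted p = 0.156 in edgeR). Srgn measured 471.6, 576.1, 439.9 and 453.1 CPM coated, against 395.7, 581.5, 769.3, 806.9 and 777.8 CPM uncoated (log2 -0.47 ± 0.20, adjusted p = 0.183 in edgeR). Without the uncoated library of M number 1 the adjusted p of Srgn was 0.0209. The difference of coating effects was tested between DC and bead cells at day 3, DC day 4 and day 3, and bead day 7 and day 3. edgeR called 0 of 9 members in each (backgrounds 1.06%, 3.35% and 3.97%, at adjusted p in edgeR). At an unadjusted p under 0.05 edgeR gave 2, 2 and 3 members, and DESeq2 called 0, 0 and 3. The edgeR backgrounds do not serve for these counts, and the shares of all genes at those settings are not given here. The 3 that DESeq2 called between bead days were Lamp1, Ctsc and Serpinb6b.

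Title numbers 120 and 30 at DC day 3 separated several members. A test adjusted for coating and for M number called 4 of 9, where 11.3% of all genes were called. Prf1 was higher with 120 than with 30 in 7 of 7 pairs of libraries matched by M number and coating. The pairs are M numbers 1, 2, 4 and 5 coated and 1, 4 and 5 uncoated. Since M numbers recur, the 7 pairs are not taken as independent replicates, here and for the members below. Libraries titled 120 ran from 121.3 to 240.7 CPM coated and 125.3 to 179.9 CPM uncoated, and those titled 30 from 52.9 to 124.2 CPM coated and 84.3 to 92.7 CPM uncoated. They overlap only slightly. The difference was 1.94-fold (log2 0.95 ± 0.11 SE, adjusted p = 1.41e-05, means 161.5 ± 42.8 CPM with 120 and 86.3 ± 19.8 CPM with 30, SD over single libraries, n = 8 libraries each).

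Rab27a was 1.35-fold higher with 120 (114.9 ± 15.5 CPM, against 86.1 ± 7.68 CPM with 30, adjusted p = 0.00377) and Serpinb6b 3.01-fold higher (27.7 ± 13.8 CPM, against 8.63 ± 6.66 CPM with 30, adjusted p = 0.00402). Ctsw was 1.44-fold lower with 120 (60.9 ± 7.99 CPM, against 86.4 ± 16.6 CPM with 30, adjusted p = 0.00089). Each kept its direction in 7 of 7 matched libraries, and Prf1 and Ctsw went opposite ways, as they did between the DC days. The log2 difference was -0.01 ± 0.08 for Srgn and -0.06 ± 0.10 for Unc13d, and neither passed the test.

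**Figure D5:**
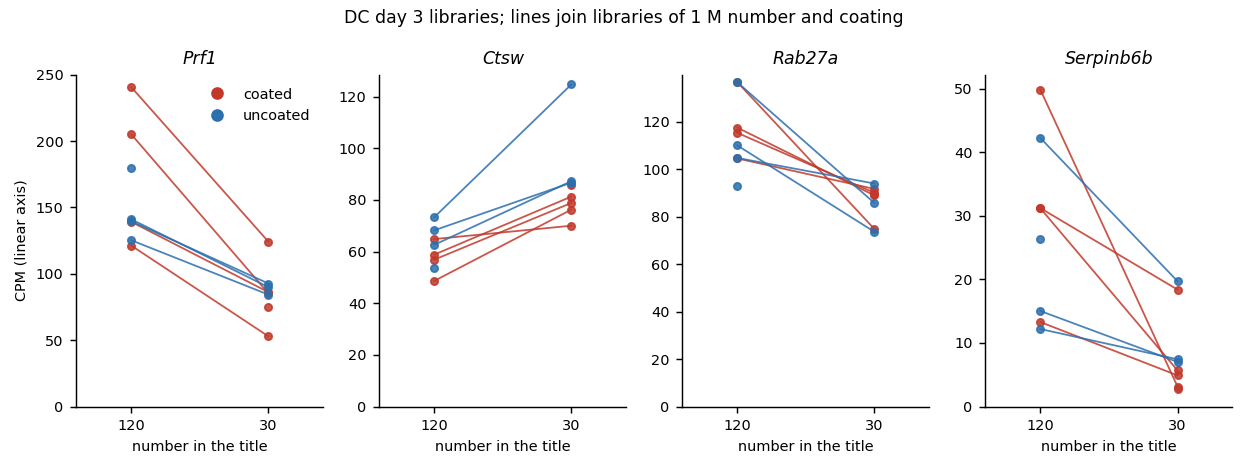
CPM of members in DC libraries of day 3 titled 120 (left) and 30 (right), with lines joining libraries of the same M number and coating. All 7 lines of Prf1, Rab27a and Serpinb6b are higher at 120 and all 7 of Ctsw are lower. Coated and uncoated lines share M numbers and are not taken as independent.

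Granzyme B RNA (Gzmb), the main cargo beside perforin, took another course from Prf1 in the comparison of activators. Uncoated DC-activated cells of day 3 held 2129 ± 347 CPM of Gzmb and bead-activated ones 4849 ± 553 CPM (2.26-fold lower with DCs, adjusted p = 4.51e-06), and at DC day 4 Gzmb was 1042 ± 634 CPM in coated and 142 ± 15.8 CPM in uncoated libraries (adjusted p = 0.00629).

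Other genes of the granule and lysosome were counted by list, with the members themselves left out. Between DC day 4 and day 3 in uncoated wells, 10 of 22 tested genes of granule transport and fusion were higher and 1 lower, where 30.6% of all genes were called higher and 30.4% lower. Their median log2 difference was 0.24, against 0.01 over all genes tested. Vamp2, a SNARE of vesicle fusion, was 4.18-fold higher (104 ± 19.6 CPM at day 4 and 23.1 ± 6.29 CPM at day 3, adjusted p = 8.91e-08) and Sytl1, a Rab27a effector, 2.16-fold higher (adjusted p = 9.35e-06). Of 9 other cathepsins and cystatins, 7 were higher and 1 lower (median log2 0.94), led by Ctsd, the aspartic protease cathepsin D, at 626.8 ± 28.2 CPM on day 4 and 143.6 ± 5.71 CPM on day 3 (adjusted p = 4.58e-11). Of 19 genes of granule biogenesis and the lysosome membrane, 8 were higher and 2 lower (median log2 0.47). Tbx21, which encodes T-bet, was 4.35-fold lower (adjusted p = 2.55e-09) and Irf4 3.24-fold lower (adjusted p = 1.24e-06), with 2 of 10 tested effector transcription factors higher and 5 lower. The marker lists moved in the same comparison. Of the genes tested for other cells, 3 of 3 B cell markers were higher (median log2 1.84), 2 of 6 genes of MHC class II (1.81) and the 1 myeloid marker, Cd68 (2.14). Of the CD8 T cell markers, which mark the cultured cells themselves, 9 of 12 were higher (0.80) and 1 lower. Summed B cell markers were 1930 to 2480 CPM at day 4 and 591 to 672 CPM in all uncoated day 3 libraries, MHC class II 266 to 1610 CPM at day 4 and 132 to 496 CPM at day 3, and myeloid and dendritic cell markers, 11 of 12 in the table, 13.6 to 56.4 CPM at day 4 and 3.51 to 16.9 CPM at day 3. Cd79a was at 0 in 2 of 5 libraries of day 4 and 3 of 7 of day 3, and Itgax in 1 of 5 and 6 of 7. At day 4 Cd79a reached at most 2.57 CPM, against 63.3 to 207 CPM at day 0. The sum of B cell markers at day 4 thus comes mostly from other genes of that list. The part of other cells in the lysosomal values was not tested.

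Bead-activated uncoated cells at day 7 had 6 of 9 cathepsins and cystatins higher than at day 3 and 0 lower, where 11.9% of all genes were called higher and 10.8% lower. Of 19 biogenesis genes 8 were higher and 0 lower (median log2 0.41, against 0.02 over all genes tested), and of 22 transport genes 4 were higher and 0 lower. Lamp2, a lysosome membrane protein like Lamp1, was 4.21-fold higher (56.2 ± 16.2 CPM at day 7 and 13.6 ± 3.93 CPM at day 3, adjusted p = 0.00159). Serpina3g, an inhibitor of cathepsins, was 6.32-fold higher (469.8 ± 78.2 CPM at day 7 and 73.4 ± 20.9 CPM at day 3, adjusted p = 7.08e-05). The 1 tested NK cell marker, Fcer1g, was also higher (12.1-fold), as were the 1 tested myeloid marker, Cd68 (2.87-fold), and 1 of 6 genes of MHC class II. Summed NK cell markers were 16.1 to 30.3 CPM at day 7 and 0 to 4.40 CPM at day 3, and myeloid and dendritic cell markers 12.8 to 33.5 CPM at day 7 and 4.18 to 10.3 CPM at day 3. Klrb1c was at 0 in 0 of 5 libraries of day 7 and 3 of 3 of day 3. Their part in these values was not tested.

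Between activators in uncoated wells of day 3, 1 of 22 transport genes was higher with DCs and 4 lower (backgrounds 11.4% and 13.8%). Sytl1 was 4.57-fold lower with DCs (19.7 ± 1.47 CPM, against 93.1 ± 16.2 CPM with beads, adjusted p = 6.66e-08) and Sytl3, of the same family, 3.2-fold lower (adjusted p = 1.76e-06). Of 11 tested effector transcription factors, 5 were higher with DCs and 3 lower. Eomes, a T-box factor known to activate Prf1, was 72.1-fold lower with DCs (4.25 ± 1.60 CPM, against 353.6 ± 65.3 CPM with beads, adjusted p = 1.6e-12). A link of any of these factors to the Prf1 level was not tested. Of the marker lists in that comparison, 2 of 3 B cell markers were lower, and of 6 genes of MHC class II 1 was higher and 1 lower.

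With coating at DC day 4, 1 of 22 transport genes was higher and 1 lower (backgrounds 9.46% and 8.92%). Sytl2, another Rab27a effector, was 2.34-fold higher (21.0 ± 6.16 CPM coated and 9.51 ± 3.17 CPM uncoated, adjusted p = 0.00551) and Vamp2 1.63-fold lower (63.5 ± 16.6 CPM coated and 104 ± 19.6 CPM uncoated, adjusted p = 0.0137). Of 19 biogenesis genes, Ap3d1, a subunit of the adaptor that sorts proteins to granules, was lower (log2 -0.35, adjusted p = 0.0386) and 0 were higher. Ctss, the protease cathepsin S, was the 1 lower gene of 9 cathepsins and cystatins (log2 -0.49, adjusted p = 0.034). The gene of the repressor Blimp-1, Prdm1, was 4.52-fold higher (10.8 ± 5.27 CPM coated and 2.61 ± 2.01 CPM uncoated, adjusted p = 0.00378). With coating 1 of 6 genes of MHC class II, 1 of 3 B cell markers and 2 of 12 CD8 T cell markers were lower and 0 of each were higher, and their part in these values was not tested.

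The genes whose 9 group means in log2(CPM + 1) most resembled those of Prf1, among 6204 genes averaging 20 CPM or more, were Otub1 (r = 0.93), Ccny (0.905), Ebag9 (0.893), Crem (0.893) and Med11 (0.892). The ranges differ. Crem ran from 14.5 CPM in uncoated DC libraries of day 4 to 75.1 CPM in uncoated DC samples of day 3, and Otub1 only from 45.7 CPM at bead day 3 uncoated to 60.4 CPM at DC day 3 coated. Among the members the r with Prf1 was highest for Srgn (0.423) and lowest for Nkg7 (-0.72) and Ctsw (-0.68).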

How the data were processed

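The authors deposited 1 table of raw counts, whole numbers for 14626 genes and 52 libraries; no gene in it stays under 6 counts in all libraries. Per the submitters' processing notes, bcl2fastq, cutadapt, STAR 2.4.2a, HTSeq and DESeq2 were used with mm10. Whether reads of 1 molecule were collapsed is not given in the sources used here. The same deposited table holds the authors' log2 fold changes and adjusted p-values for coating, printed only where named. Another 104 columns of per-sample values were not used.

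Totals were 382924 to 4641802 counts, and of 1326 library pairs 0 were identical. CPM use TMM factors over all libraries. In each of 18 comparisons filterByExpr removed low genes (count minimum 10, total minimum 15), TMM scaling was applied, and the two-sided quasi-likelihood test of edgeR 4.0.16 in R 4.3.3 was run, with p-values adjusted by Benjamini and Hochberg's method over the whole set of tested genes. The 16 DC day 3 libraries were summed per M number and coating, and the comparison of 120 with 30 used single libraries. Same-numbered samples were taken as pairs where deviations from group means correlated above 0.1 in every one of at least 3 pairs: coating at DC day 4 (0.16 to 0.39) and DC day 3 (0.12 to 0.29), and bead day 7 against day 3 uncoated (0.15 to 0.29). The reported tests carry no term for M number, except 120 against 30, so the pairing enters only through the alternative with M number as a block.

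Alternatives were size factors of DESeq2, the Wald test of DESeq2 1.42.0, no filter, M number as a block, subsets of the DC and day 0 libraries, and leaving out each sample. Positions are from GENCODE vM21 for GRCm38 and promoters from RefSeq for GRCm38.p6. The script was tested on simulated data. All members were named in every comparison, with up to 2 called genes of smallest p from each wider list and the 5 genes most like Prf1. Members and lists were chosen with earlier results of these data known.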

Additional observations from a re-analysis of the deposited data

Results flagged for a closer look

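In 80 groups of 4 to 10 samples, the highest or lowest sample was compared with the others by Dixon's criterion, which chance meets in about 1 in 20 groups. It was met 3 times. Nkg7 in the coated bead library of day 3 with M number 3 stood at 211.3 CPM (397 counts), below the other 4 libraries at 702.3 to 872.2 CPM.

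Serpinb6b in the coated DC library of day 4 with M number 9 stood at 35.85 CPM (78 counts), above the others at 5.534 to 14.11 CPM. Without that library the coating value of Serpinb6b at DC day 4 was -1.65 ± 0.41 (adjusted p = 0.0179).

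Serpinb9 in the coated bead library of day 7 with M number 3 stood at 2.309 CPM, which is 4 counts, above the others at 0.6235 to 0.7017 CPM.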

How the results depend on the processing

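Counts of members called kept within 1.5 times under most settings. Coating at DC day 4 gave 2 calls, 1 with size factors of DESeq2, 1 with no filter, 0 without M number 8, and 0 to 3 when 1 library was left out. With M number as a block in edgeR, coating gave 1 call at bead day 3 (Serpinb6b 2.43, adjusted p = 0.0129). It gave 1 at bead day 7 (Serpinb6b -2.13, adjusted p = 0.00142). There the numbers were not taken as pairs, since deviations correlated at 0.01 to 0.23 in 3 pairs and at -0.19 to 0.51 in 4 pairs. So few pairs cannot exclude pairing. Coated Serpinb6b was higher in 3 of 3 pairs at bead day 3 and lower in 4 of 4 at bead day 7. Leaving out 1 library gave 0 to 1 calls for coating at bead day 7, 1 to 6 for bead day 7 against day 3 uncoated and 0 to 2 for the difference between bead days, where DESeq2 gave 3. DC day 4 against day 3 coated gave 7 relative to own day 0. No block could be fitted for DC day 4 against day 3, which share no M number.

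Of 2555 alternative values of single members, 166 turned their sign, in 51 results, of which 0 were called as reported. In 155 of them the reported value was no larger than its SE. The other 11, with no call unless named, were Rab27a for coating at DC day 3 (0.064 with the title number as covariate, 0.057 with only 30 and 0.082 with only 120), Rab27a for DC against bead coated with only 120 (0.10), Unc13d against day 0 at DC day 3 with the block (0.13), Ctsc against day 0 at DC day 4 with the block (-0.023) and Serpinb6b there with the block (-0.40) or day 0 of M numbers 6 to 10 (-0.17). Relative to own day 0, DC day 4 against day 3 turned for Srgn uncoated (0.44, called) and coated (0.57, called) and for Unc13d coated (-0.18). The cause was not tested. The block changed other member calls only where named above and in comparisons whose numbers were not taken as pairs. Serpinb9 had too few counts for a test.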
